A study of Homo sapiens with 15 samples.

Results

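RET, its co-receptor gene GFRA1 and 6 other receptor tyrosine kinase genes (DDR1, MET, MST1R, AXL, KIT and ROR1) were followed across parental and tamoxifen-resistant T47D breast cancer cells. The 8 genes were taken by symbol from the 60664 gene IDs counted, with 1 ID per symbol, and 6 of them were among the 16210 genes with enough counts to be tested. KIT and ROR1 were left out by that filter. RET lies on GRCh38 at chr10:43077064-43130351 on the plus strand and GFRA1 at chr10:116056925-116276803 on the minus strand. DDR1 lies at chr6:30876421-30900156, MET at chr7:116672196-116798377 and MST1R at chr3:49887002-49903873. AXL lies at chr19:41219223-41261766, KIT at chr4:54657918-54740715 and ROR1 at chr1:63774017-64181498. All are protein-coding genes, and counting used the strand.

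T47D is an established luminal, oestrogen receptor-positive breast cancer line. Parental cells (PAR) were maintained in 5% serum. The resistant derivative (TR) was maintained in 2% charcoal-stripped serum with 1 µM 4-hydroxytamoxifen (4-OHT), an oestrogen receptor antagonist formed from tamoxifen in the liver. Cells of both kinds were plated for 24 h, starved for 48 h in 2% charcoal-stripped serum, then exposed to the agents for 120 h. Parental cells received vehicle (0.05% DMSO). Resistant cells received vehicle, 1 µM 4-OHT, 5 µM erdafitinib, or both drugs (TR combination). Erdafitinib blocks the kinases of the FGF receptors and is also known to bind RET and KIT. Each of the 5 groups held 3 libraries. The labels only call them biological replicates, so p-values here reflect only how far these samples spread, and that spread may be technical. Resistance, serum and long exposure to 4-OHT differ together between TR and PAR and cannot be told apart.

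A receptor tyrosine kinase is a membrane protein whose intracellular kinase is switched on when an extracellular ligand brings receptors together. Such a receptor is called a bypass receptor when it feeds the same growth pathways as one that a drug has blocked. RET needs a helper: ligands of the GDNF family bind a membrane-anchored co-receptor of the GFRα family, encoded by GFRA1 among others, and the pair then engages RET. In luminal breast cancer cells, RET and GFRA1 are both known as oestrogen-induced genes. MET and MST1R are the related receptors for hepatocyte growth factor and macrophage-stimulating protein. DDR1 binds collagen, AXL binds GAS6, KIT binds stem cell factor, and ROR1 is a receptor for WNT5A.

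RET, GFRA1 and DDR1 are the genes whose level differed between resistant and parental cells, so the start-site windows of these genes are shown first. Each is a 300-base window around a RefSeq start site on GRCh38.p14, most of it upstream, read in the direction of transcription, at the annotated start nearest the upstream end of the counted gene. All 8 genes had at least 1 RefSeq window. Capitals mark the GC box (GGGCGG, either strand) and the half-site of the oestrogen response element (GGTCA, either strand). The RET window is chr10:43076819-43077118, plus strand, the GFRA1 window is chr10:116274656-116274955, minus strand, and the DDR1 window is chr6:30880720-30881019, plus strand.
RET: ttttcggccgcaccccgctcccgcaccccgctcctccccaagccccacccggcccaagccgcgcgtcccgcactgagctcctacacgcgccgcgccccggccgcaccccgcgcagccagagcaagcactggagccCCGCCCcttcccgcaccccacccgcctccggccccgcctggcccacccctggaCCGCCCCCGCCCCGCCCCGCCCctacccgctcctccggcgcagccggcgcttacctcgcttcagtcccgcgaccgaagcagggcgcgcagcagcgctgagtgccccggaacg
GFRA1: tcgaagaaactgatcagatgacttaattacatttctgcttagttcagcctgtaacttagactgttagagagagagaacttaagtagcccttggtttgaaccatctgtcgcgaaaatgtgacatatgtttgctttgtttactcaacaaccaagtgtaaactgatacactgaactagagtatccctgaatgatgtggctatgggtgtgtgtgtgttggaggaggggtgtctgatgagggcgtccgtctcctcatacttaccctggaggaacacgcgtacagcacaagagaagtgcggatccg
DDR1: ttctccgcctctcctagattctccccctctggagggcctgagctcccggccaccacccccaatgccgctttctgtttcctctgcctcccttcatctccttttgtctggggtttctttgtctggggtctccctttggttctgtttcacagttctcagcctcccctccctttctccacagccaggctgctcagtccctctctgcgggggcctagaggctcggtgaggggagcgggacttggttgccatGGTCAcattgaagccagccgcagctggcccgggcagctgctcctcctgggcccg
The RET window was 78.7% G or C and held 5 GC boxes, some of them next to each other, while 45% of all 35116 RefSeq windows held at least 1. The GFRA1 window was 45% G or C and held neither motif. The DDR1 window was 62.3% G or C and held 1 half-site, a run of letters found in 37.4% of all windows. These genes also have windows at other start sites, which differed. The second RET window was 58.7% G or C with 1 GC box. A GFRA1 window of 67.7% held 1 GC box. Other DDR1 windows ran from 44.3% to 78.7% and held up to 3 half-sites or 3 GC boxes. The full oestrogen response element (GGTCANNNTGACC, which contains the half-site on each strand) was found in 0.057% of all windows and in none of those of the 8 genes. These are matches of letters in short windows, and nothing on binding by the oestrogen receptor follows from them.

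Totals ranged from 6946684 to 28717380 counts per library (median 22304029). Libraries of the same group differed mainly along 1 axis, with 49.5% of the variance within groups, that tracked the GC content of transcripts (Spearman -0.748 between GC content and loading over 16033 genes, which are not independent replicates). TR vehicle 1 (score 0.426) and PAR vehicle 2 (0.419) lay at its GC-poor end, and PAR vehicle 3 (-0.460) lay at its GC-rich end. Luminal breast epithelium markers were expressed in all groups, with 2846 to 4687 summed CPM (counts scaled to library size) over 8 genes. Single members of that sum went opposite ways in TR vehicle against PAR vehicle. ESR1 fell by 1.44 and FOXA1 by 1.25 on the log2 scale (edgeR adjusted p = 7.39e-06 and 1.19e-05). CDH1 rose by 0.83 and GATA3 by 0.45 (edgeR adjusted p = 0.000248 and 0.0369). EPCAM, KRT8, KRT18 and KRT19 did not pass an adjusted p of 0.05. The summed level of 6 basal or myoepithelial markers was 3.18 to 4.02 CPM in PAR vehicle and 448 to 1177 CPM in TR vehicle. ACTA2, TP63 and MYLK made up nearly all of it, whereas KRT14 was at 0 in both groups and KRT5 and KRT17 averaged 0.193 and 0.203 CPM in TR vehicle. Of 8 fibroblast markers, 6 were at 0 throughout PAR vehicle and 3 throughout TR vehicle, and the list summed to 11.9 to 28.2 CPM in PAR vehicle and 13.3 to 37.7 CPM in TR vehicle. In bulk RNA, fewer cells of a type and less RNA per cell cannot be told apart. The part of these markers and of the GC axis in the results below was not tested, except where a value without a library or with the axis in the fit is given.

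**Figure D1:**
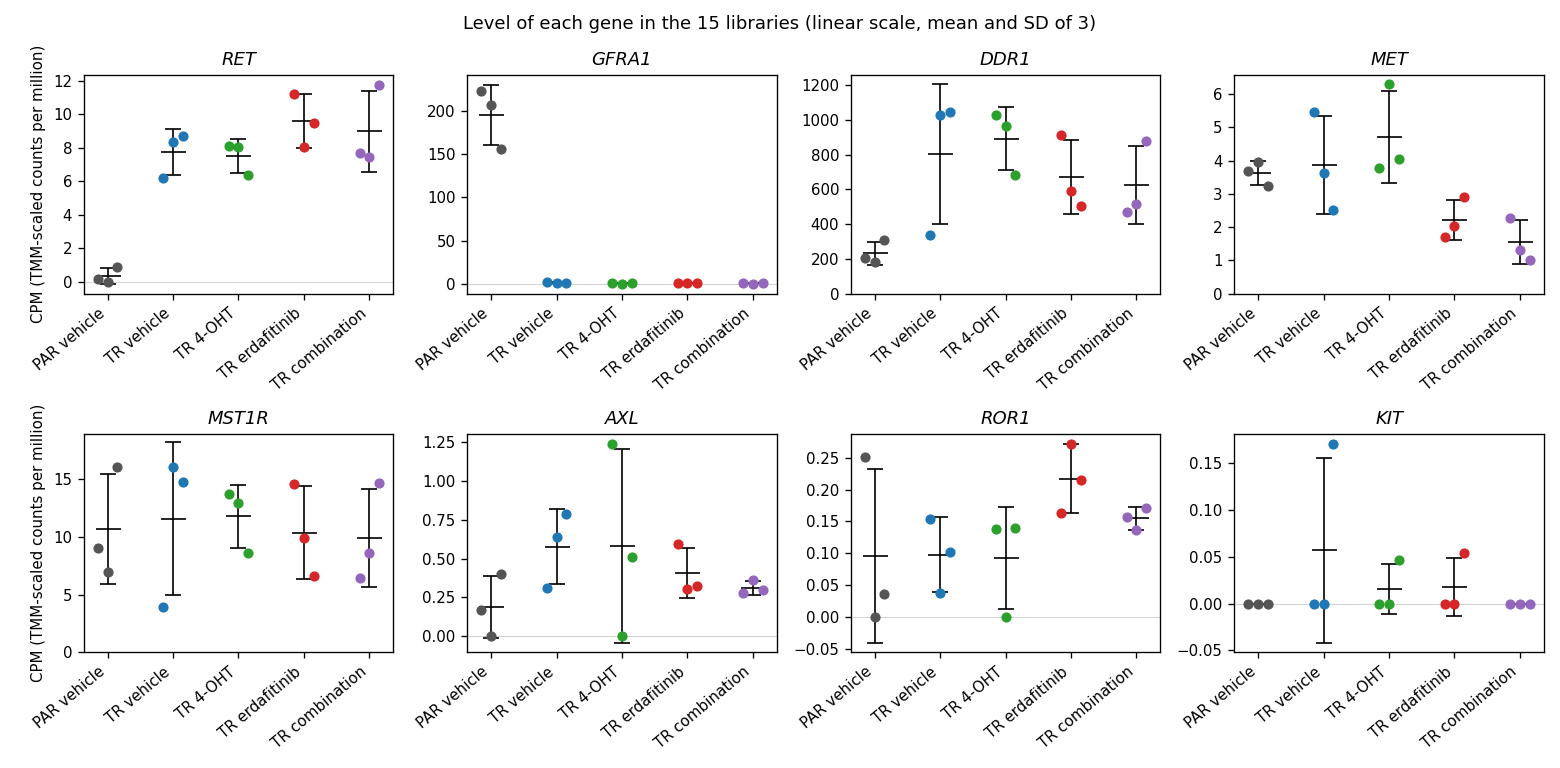
CPM of each of the 8 genes in the 15 libraries, by group, on linear axes that differ between panels; points are libraries, bars the mean and SD of 3. RET is near 0 in PAR vehicle and between 6.19 and 11.8 CPM in the resistant libraries, GFRA1 shows the opposite pattern, and KIT and ROR1 stay under 0.3 CPM.

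TR vehicle was compared with PAR vehicle first, to see which of the receptors differ in the resistant state. RET was higher and GFRA1 was lower in resistant cells, and DDR1 was higher. MET, MST1R and AXL did not pass the test. Thus 3 of the 6 tested members were called, 2 higher and 1 lower, against 35.9% of all genes tested that were called in either direction (19.9% higher and 16.0% lower), where a call is a Benjamini-Hochberg adjusted p under 0.05 in edgeR's quasi-likelihood test over all genes. With calls so common over the whole transcriptome, nothing particular to the receptors follows from this count. The median log2 fold change of the 6 tested was 0.67, against 0.07 over all genes.

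RET, the receptor of the GDNF family, stood at 0.168 CPM in PAR vehicle 1, 0 in PAR vehicle 2 and 0.872 in PAR vehicle 3. In TR vehicle the 3 libraries stood at 6.19, 8.37 and 8.68 CPM. Every resistant library was thus above every parental one, and within PAR vehicle library 3 held 24 of the group's 26 counts. RET rose by 4.05 on the log2 scale (SE 0.54; edgeR adjusted p = 4.77e-05). Without PAR vehicle 3 it was 6.11 (adjusted p = 3.05e-06), so the size of the rise, though not its call, rests on that library. RET moved with the GC axis within groups (Pearson r = -0.76 over the 15 libraries), and its transcript GC content of 54.5% lay at the 72nd percentile of tested genes.

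GFRA1, which encodes the co-receptor that presents GDNF to RET, stood at 223, 207 and 156 CPM in the 3 PAR vehicle libraries. In TR vehicle it stood at 2.27, 1.57 and 1.78 CPM. No library of one group came near the other group, and GFRA1 fell by 6.71 on the log2 scale (SE 0.38; adjusted p = 9.92e-09, edgeR). Over the alternatives tried the value was -6.86 to -6.59. GFRA1 showed no relation to the within-group axis (r = -4.8e-05).

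RET and its co-receptor thus lay on opposite sides of parental and resistant cells. Per transcript length, the ratio of RET to GFRA1 in FPKM (CPM per kilobase of exon) was 0.000895, 0 and 0.00665 in the PAR vehicle libraries. It was 3.24, 6.33 and 5.80 in TR vehicle, and between 3.78 and 16.4 in the 9 drug-treated resistant libraries. In parental cells the co-receptor transcript outnumbered that of the kinase, and in every resistant library the kinase transcript was the more abundant of the pair.

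DDR1, the collagen receptor, had the highest group mean of the members in all 5 groups, although GFRA1 exceeded it in PAR vehicle 1 and 2 on the CPM scale. It stood at 205, 183 and 306 CPM in PAR vehicle and at 336, 1029 and 1043 CPM in TR vehicle. The groups did not overlap, but TR vehicle 1 was close to PAR vehicle 3. The log2 fold change was 1.79 (SE 0.40; adjusted p = 0.00277, edgeR), and without TR vehicle 1 it was 2.16. DDR1 has a GC-rich transcript (61.6%, 91.6th percentile) and ran with the within-group axis (r = -0.82). These 3 members were also those whose libraries did not overlap between the groups, which held for 41.0% of all genes tested.

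MET, the hepatocyte growth factor receptor, stood at 3.69, 3.97 and 3.24 CPM in PAR vehicle and at 5.46, 3.63 and 2.53 CPM in TR vehicle. The resistant libraries lay on both sides of the parental ones, and the log2 fold change was 0.10 (SE 0.38; adjusted p = 0.87). MST1R, the receptor for macrophage-stimulating protein, stood at 9.05, 6.98 and 16.0 CPM in PAR vehicle and at 3.97, 16.1 and 14.7 CPM in TR vehicle. Its spread within each group exceeded the difference between them (log2 fold change 0.10, SE 0.49; adjusted p = 0.895), and it followed the GC axis as closely as DDR1 did (r = -0.85). Across the 12 resistant libraries MST1R and DDR1 rose and fell together (r = 0.97), a description over libraries that share this axis.

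AXL, the GAS6 receptor, was barely expressed. It stood at 0.168, 0 and 0.400 CPM in PAR vehicle and 0.309, 0.636 and 0.786 CPM in TR vehicle, from 0 to 23 counts per library. The log2 fold change of 1.23 (SE 0.84; adjusted p = 0.278) did not pass, and it was 2.42 without PAR vehicle 3. With the within-group axis in the fit it was 1.66 and passed (adjusted p = 0.0469), but that axis was estimated from the same libraries and the fit then called 8888 genes in place of 5818.

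KIT, the stem cell factor receptor, had 0 counts in PAR vehicle, where 3 counts over the group would equal 0.0656 CPM. In resistant cells it had 5 counts in TR vehicle 3, 1 in TR 4-OHT 3, 1 in TR erdafitinib 3 and 0 in the other 9 libraries. ROR1, the WNT5A receptor, had 4 counts over the PAR vehicle group, 7 over TR vehicle, 7 over TR 4-OHT, 17 over TR erdafitinib and 11 over TR combination. No library exceeded 0.272 CPM. All 3 TR erdafitinib libraries (0.164 to 0.272 CPM) lay above those of TR vehicle (0.0374 to 0.155 CPM). They also lay above those of TR 4-OHT (0 to 0.139 CPM). This rests on at most 8 counts per library, and PAR vehicle reached 0.252 CPM. Among tested genes, 11.6% likewise had no overlap between TR erdafitinib and TR vehicle. Neither gene was tested.

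**Figure D2:**
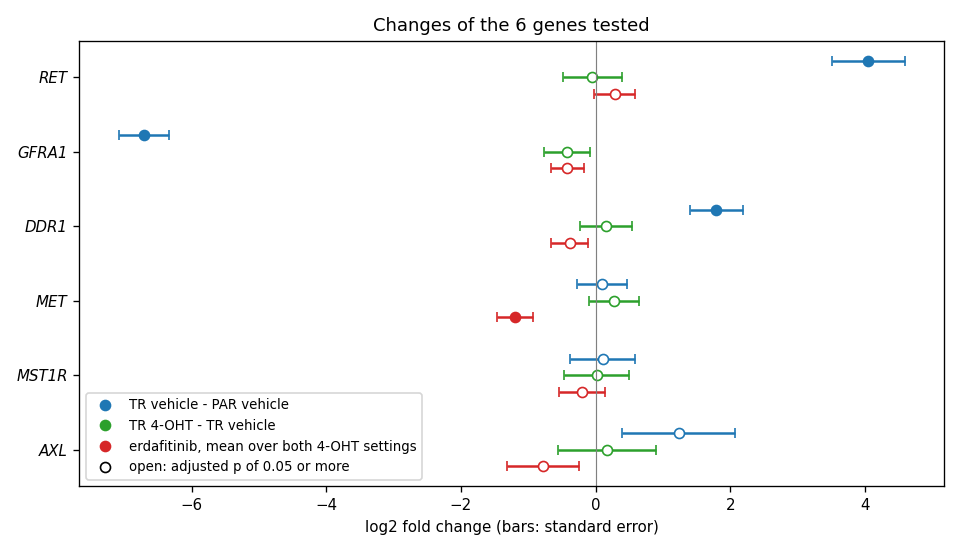
Log2 fold change (x axis, bars the SE) of the 6 genes tested, for TR vehicle against PAR vehicle, TR 4-OHT against TR vehicle, and erdafitinib averaged over both 4-OHT settings; filled points have an adjusted p under 0.05. RET (4.05), DDR1 (1.79) and GFRA1 (-6.71) are filled for the resistant state, no point is filled for 4-OHT, and MET (-1.20) is filled for erdafitinib.

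Resistant cells given 4-OHT for 120 h after starvation were set against the same parental libraries, so these values share their controls with those above. RET stood at 8.11, 8.06 and 6.36 CPM in TR 4-OHT, 4.00 above PAR vehicle on the log2 scale (SE 0.54; edgeR adjusted p = 5.36e-05). GFRA1 stood at 1.31, 0.584 and 2.00 CPM and fell by 7.13 (SE 0.39; adjusted p = 7.18e-09). DDR1 stood at 1025, 963 and 684 CPM, 1.94 above PAR vehicle (SE 0.40; adjusted p = 0.0016). All 3 libraries of TR 4-OHT lay beyond all parental libraries for each of these genes, and the other 3 tested members were again not called. The background was 35.3% of all genes called and 44.1% with groups that did not overlap. Without PAR vehicle 3 the RET value was 6.06.

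Among all 58 human receptor tyrosine kinase genes, levels per transcript length placed DDR1 second in PAR vehicle, at a mean of 25.4 FPKM and 14.7% of the family's summed level. ERBB3 was first. In TR vehicle DDR1 ranked first at 88.0 FPKM and 38.7% of the sum, and it ranked first in all 4 resistant groups, with 38.4% to 41.8% of the sum. The mean of 88.0 FPKM came from TR vehicle libraries at 36.9, 113 and 114 FPKM, and DDR1 ran with the within-group axis. RET ranked 32nd in PAR vehicle at 0.0386 FPKM and 24th in TR vehicle at 0.863 FPKM, or 0.38% of the sum. In the other resistant groups it ranked 20th to 24th. A rise of RET by 4.05 on the log2 scale therefore led to a transcript level that was still a small share of the family. MET went from rank 25 to 27, MST1R from 14 to 15, and AXL was 33rd in both groups.

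**Figure D3:**
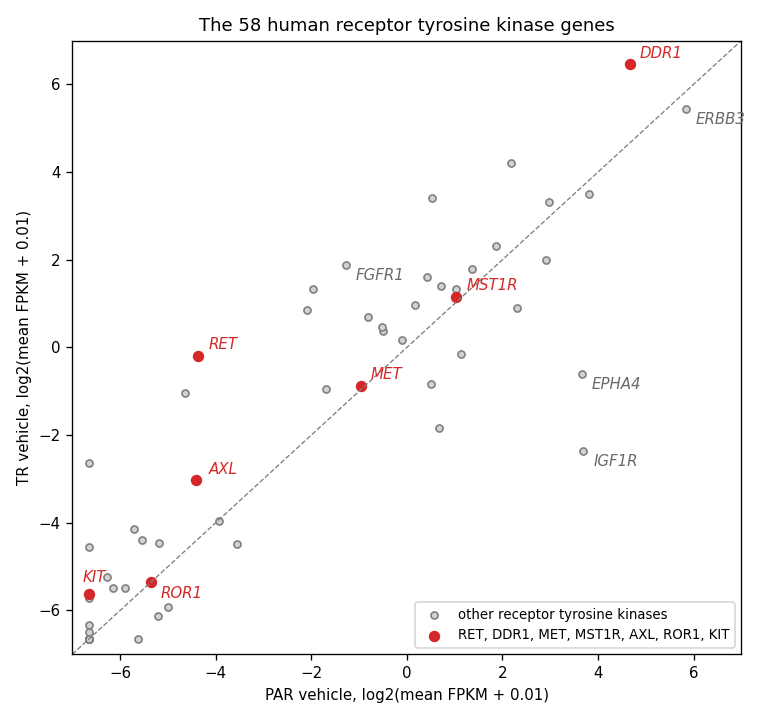
Mean level per transcript length of 58 receptor tyrosine kinase genes in PAR vehicle (x axis) and TR vehicle (y axis), each as log2(FPKM + 0.01); the dashed line marks equal levels. DDR1 (25.4 and 88.0 FPKM) and RET (0.0386 and 0.863 FPKM) lie above the line, IGF1R and EPHA4 far below it.

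Of the 51 receptor tyrosine kinase genes outside the members, 33 were tested in TR vehicle against PAR vehicle, and 9 rose and 7 fell, with a median log2 fold change of 0.46. The counts of this and the following lists stand beside 35.9% of all genes called, 19.9% higher and 16.0% lower. The median over all genes was 0.07, and a list near those shares does not stand apart. The lists were chosen with earlier results known. Listed genes with 0 to 3 counts over PAR vehicle passed the filter only through resistant libraries. If called, such genes could only be higher, so the number that rose only describes a list. The insulin-like growth factor receptor gene IGF1R fell by 6.14, from 180 ± 22.6 to 2.55 ± 0.452 CPM (SD, n = 3), close to the size of the GFRA1 change. The ephrin receptor gene EPHA4 fell by 4.29. STYK1 rose by 3.26 and the fibroblast growth factor receptor gene FGFR1 by 3.16.

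**Figure D4:**
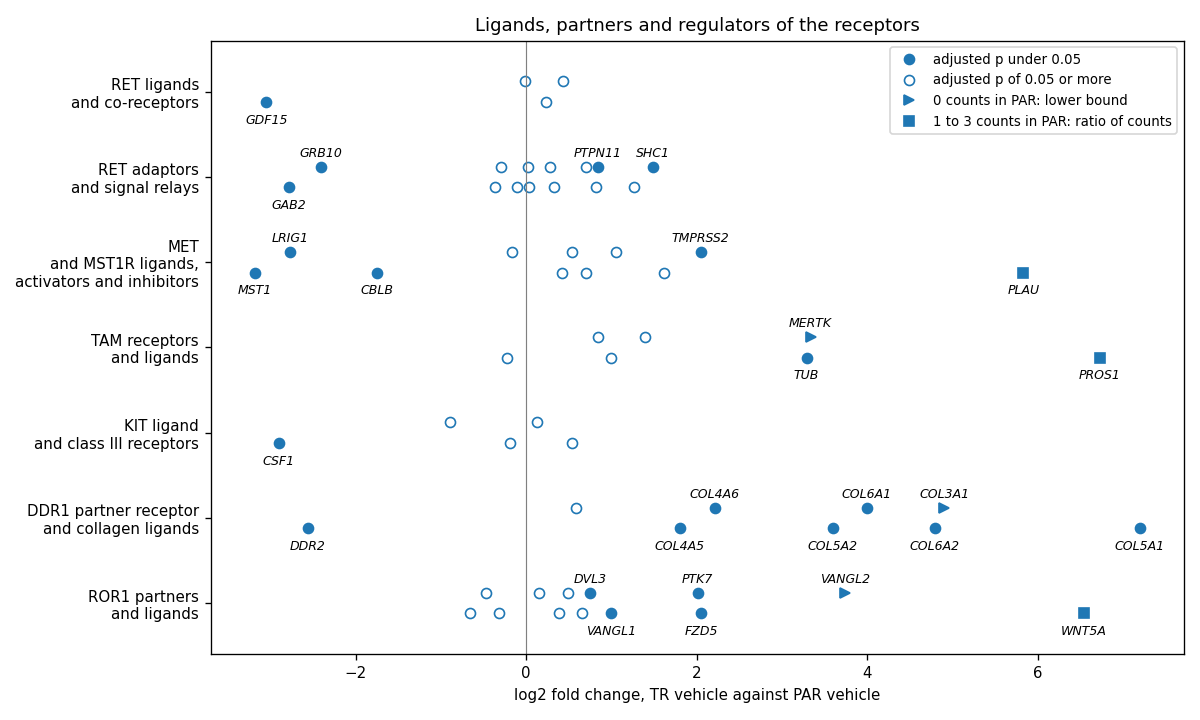
Log2 fold change in TR vehicle against PAR vehicle (x axis) of the tested ligands, partners and regulators of the receptors, 1 line per list; filled and named points have an adjusted p under 0.05. Triangles are lower bounds for genes with 0 counts over PAR vehicle and squares ratios of counts for genes with 1 to 3. COL5A1 (7.20) lies farthest right, while GDF15, GAB2, GRB10, MST1, LRIG1, CBLB, CSF1 and DDR2 lie to the left.

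Transcripts of some RET ligands were present and others were at or near 0. Of 11 ligand and co-receptor genes, 4 were tested and 1 was called. GDNF had 0 counts over PAR vehicle and 8 over TR vehicle, and NRTN, the neurturin gene, had 2 and 14. ARTN, which encodes artemin, stood at 4.76 ± 2.44 CPM in PAR vehicle and 4.78 ± 2.49 CPM in TR vehicle (log2 fold change -0.01, adjusted p = 0.99). PSPN, the persephin gene, stood at 3.17 ± 1.01 and 4.27 ± 1.91 CPM (adjusted p = 0.512). GDF15, which signals through RET with the co-receptor GFRAL, fell by 3.05 (SE 1.05; adjusted p = 0.0356), from 9.66 ± 11.1 to 1.17 ± 0.874 CPM with a wide spread in PAR vehicle, and GFRAL itself had 0 counts in all 15 libraries. Of the alternative co-receptors, GFRA2 had 0 counts over PAR vehicle and 21 over TR vehicle, at least 4.25-fold higher against a floor of 3 counts over the group. GFRA3 had 3 counts and 1, and GFRA4 had none in any library. GFRA2 at 0.268 ± 0.124 CPM remained below GFRA1 at 1.57 to 2.27 CPM in the same cells. Values of ligands and co-receptors other than GDF15 are given for their role and were not picked by a test.

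Downstream of RET, 14 of 18 adaptor and relay genes were tested in TR vehicle against PAR vehicle, and 2 rose and 2 fell, a smaller share than the 35.9% of all genes called, with a median log2 fold change of 0.16. GRB10, an adaptor that binds activated receptors, fell by 2.40 (SE 0.18; adjusted p = 1.84e-07), from 105 ± 2.15 to 19.9 ± 3.03 CPM. GAB2, a docking protein that recruits PI3-kinase, fell by 2.79 (SE 0.26; adjusted p = 1.91e-06). PTPN11, the gene of the phosphatase SHP2, rose by 0.84 (adjusted p = 0.00797). SHC1, which links RET to the RAS pathway, rose by 1.49 (adjusted p = 0.013), although libraries of the groups overlapped. GRB2, FRS2, GAB1, SRC and CBL were not called.

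On the MET and MST1R side, 11 of 14 genes were tested, and 2 rose and 3 fell (median 0.54, with 35.9% of all genes called). HGF, the ligand of MET, had 1 count over all 15 libraries. MST1, which encodes the ligand of MST1R, fell by 3.18 (SE 0.80; adjusted p = 0.00649), from 8.38 ± 7.33 to 0.924 ± 0.533 CPM, a gene chosen after its value was seen because it is the receptor's ligand. Of 4 tested genes of proteases known to activate these ligands, 2 were called. PLAU, the urokinase gene, had 1 count over PAR vehicle and 94 over TR vehicle, a ratio of 57.0 (95% counting interval 9.99 to 2275). PLAU passed the filter only through resistant libraries and, if called, could only be higher. TMPRSS2 rose by 2.05 (SE 0.28; adjusted p = 6.26e-05), whereas ST14, the matriptase gene, was not called (1.05, adjusted p = 0.201), nor was HPN, the hepsin gene (0.42, adjusted p = 0.608). Among negative regulators, LRIG1, a membrane protein that promotes receptor degradation, fell by 2.77 (SE 0.25; adjusted p = 1.01e-06). The ubiquitin ligase gene CBLB fell by 1.75 (adjusted p = 8.39e-06).

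Of the listed collagen genes, which encode ligands of DDR1, all those tested except COL1A1 were higher in resistant cells, as was the receptor. The other collagen genes on the list had too few counts to be tested. Of 17 collagen and partner genes, 9 were tested and 7 rose, all of them collagens, and 1 fell, with a median log2 fold change of 3.60. COL5A2 rose by 3.60 (SE 0.29; adjusted p = 4.3e-07), from 2.62 ± 1.19 to 33.4 ± 7.11 CPM. COL5A1 rose by 7.20 (SE 0.66) and COL4A5 by 1.80 (SE 0.20). COL3A1 had 0 counts over PAR vehicle and 148 over TR vehicle, at least 29.9-fold higher against 3 counts over the group. It passed the filter only through resistant libraries and, if called, could only be higher. COL1A1 was not called, at 17.8 ± 9.01 and 26.9 ± 13.1 CPM (adjusted p = 0.35). The one gene that fell was DDR2, the other collagen receptor, which dropped by 2.56 (SE 0.34; adjusted p = 5.16e-05), from 17.7 ± 4.63 to 3.00 ± 1.55 CPM. DDR2 lay outside the rule for named genes and was named after its value was seen. These collagens rose alongside the basal markers ACTA2, TP63 and MYLK, all 3 of which were called higher. COL3A1 is also on the list of fibroblast markers. Of the others on it, LUM had 13 counts, DCN 4 and PDGFRA 1 over TR vehicle and 0 over PAR vehicle, FAP had 1 count over PAR vehicle only, and COL1A2 and PDGFRB had 0 over both.

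Of the AXL group, 7 of 8 genes were tested and 3 rose (median 1.39), where 19.9% of all genes rose. PROS1, whose product protein S binds receptors of this family, had 3 counts over PAR vehicle and 524 over TR vehicle, a ratio of 105.9 (95% counting interval 36.1 to 515). MERTK, a sister receptor of AXL, had 0 and 50 counts, at least 10.1-fold higher. PROS1 and MERTK passed the filter only through resistant libraries and, if called, could only be higher. Nothing about the list as a whole follows from its count. TUB, a MERTK ligand, rose by 3.29 (SE 0.34; adjusted p = 4.81e-06). GAS6, the ligand of AXL, was not called (adjusted p = 0.0996), at 18.1 ± 16.8 and 48.6 ± 28.0 CPM.

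For ROR1, 13 of 16 partner genes were tested and 6 rose (median 0.66), where 19.9% of all genes rose. WNT5A, its ligand, had 1 count over PAR vehicle and 154 over TR vehicle, a ratio of 93.4 (95% counting interval 16.5 to 3713). FZD5, a WNT receptor, rose by 2.06 (SE 0.25; adjusted p = 2.13e-05). The planar polarity genes VANGL1 and VANGL2 were higher too, VANGL1 by 1.00 (SE 0.13) and VANGL2 with 66 counts against 0, at least 13.3-fold. WNT5A and VANGL2 passed the filter only through resistant libraries and, if called, could only be higher. Nothing about the list as a whole follows from its count. Ligand and partners were thus expressed in cells where ROR1 itself had 7 counts. Other receptor genes on this list were expressed as well. PTK7 rose by 2.01 (SE 0.47; edgeR adjusted p = 0.00375). ROR2 (0.66, edgeR adjusted p = 0.301) and RYK (-0.32, edgeR adjusted p = 0.193) were not called. PTK7, ROR2 and RYK lay outside the rule for named genes.

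For KIT, 5 of 12 ligand and related receptor genes were tested and 1 fell (median -0.20). The ligand gene KITLG was expressed at 54.2 ± 8.25 CPM in PAR vehicle and 47.4 ± 17.6 CPM in TR vehicle (adjusted p = 0.547). CSF1, the ligand of the related receptor CSF1R, fell by 2.90 (SE 0.71; adjusted p = 0.0052).

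RET and GFRA1 were also read beside genes of the oestrogen receptor programme. Of 13 such genes, 2 rose and 8 fell in TR vehicle, with a median of -0.68, and the 4 with the smallest p, all lower, were GREB1, SIAH2, PGR and MYB. GREB1 fell by 5.22 and PGR by 4.62, the direction of GFRA1 and the opposite of RET. Over the 15 libraries, the genes with the most similar profile to GFRA1 were PXK (r = 0.992), AREG, FOSB, ZNF385B and TENM3. AREG encodes amphiregulin, a ligand of the epidermal growth factor receptor, and FOSB a transcription factor of the AP-1 family. Those most like RET were the amino acid transporter gene SLC7A8 (r = 0.983), ADCY2, WDR45B, ICMT and MDGA1. Such likeness was common: of 10241 genes compared, 594 had r above 0.9 with RET and 465 with GFRA1. Within the 12 resistant libraries alone, r was 0.566 to 0.801 for the 5 genes named with RET. For the 5 named with GFRA1 it was 0.0646 to 0.685, so much of the likeness lay in the step between PAR and TR.

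In resistant cells, TR 4-OHT was set against TR vehicle. Both were maintained in 1 µM 4-OHT and starved for 48 h before treatment. The comparison thus sets 120 h on 4-OHT against its withdrawal and does not read a first exposure. None of the 6 tested members was called, and none of the 16210 genes was called either (0% called by edgeR, 127 genes at an unadjusted p under 0.05, and 0 by DESeq2). RET had a log2 fold change of -0.05 (SE 0.44), GFRA1 -0.42 (SE 0.35), DDR1 0.15 (SE 0.38) and MET 0.27 (SE 0.37). For RET the TR vehicle libraries (6.19 to 8.68 CPM) and the TR 4-OHT libraries (6.36 to 8.11 CPM) covered the same range.

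Erdafitinib was read in resistant cells without 4-OHT, with 4-OHT, and as the mean of both effects. Without 4-OHT, 15 genes were called (0.0925%) and no member was. RET stood at 11.2, 8.07 and 9.50 CPM in TR erdafitinib, 0.31 from TR vehicle on the log2 scale (SE 0.43; adjusted p = 1). GFRA1 stood at 1.54, 0.885 and 1.50 CPM (-0.51, SE 0.34; adjusted p = 1). DDR1 stood at 915, 592 and 507 CPM (-0.26, SE 0.38; adjusted p = 1). RET and DDR1 overlapped with TR vehicle. All 3 GFRA1 libraries lay just below those of TR vehicle, a separation found for 11.6% of all genes in this comparison. All 3 genes remained beyond every parental library.

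Of the 6 tested members, MET had the largest fitted change with erdafitinib. It stood at 1.70, 2.04 and 2.90 CPM in TR erdafitinib against 5.46, 3.63 and 2.53 CPM in TR vehicle, a log2 fold change of -0.81 (SE 0.37; unadjusted p = 0.0487, adjusted p = 1). On top of 4-OHT, it stood at 2.28, 1.32 and 1.03 CPM in TR combination against 3.78, 6.31 and 4.04 CPM in TR 4-OHT, a log2 difference of -1.59 (SE 0.39; adjusted p = 0.103). The groups overlapped in the first setting and not in the second, where 15.7% of all genes had groups that did not overlap and 0.642% were called. Neither comparison passed over all genes, although the second did with DESeq2. The difference between the 2 effects was -0.78 (SE 0.53; unadjusted p = 0.164), and the interaction test called no gene (134 at an unadjusted p under 0.05, and 1 by DESeq2), so the effects were not shown to differ.

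Averaged over both 4-OHT settings, MET fell by 1.20 on the log2 scale (SE 0.27; adjusted p = 0.0379, edgeR), the only member called, against 1.71% of all genes called and 0.938% called lower. The 6 libraries with erdafitinib held 1.03 to 2.90 CPM and the 6 without it 2.53 to 6.31 CPM, so the ranges overlapped. The value rests on 24 to 110 counts per library. The call was close to its threshold: it was kept in 2 of the 12 fits that each left out 1 library (without TR vehicle 3 or TR combination 1) and lost in the others, with an adjusted p of up to 0.117 and a log2 fold change of -1.40 to -1.03. MET ran with the GC-poor end of the within-group axis (r = 0.78), and with that axis in the fit its value was -1.19 (adjusted p = 0.000588). The other 5 tested members were not called: RET 0.28 (SE 0.31), GFRA1 -0.42 (SE 0.25), DDR1 -0.39 (SE 0.27), MST1R -0.21 (SE 0.34) and AXL -0.78 (SE 0.53).

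Several partner genes did change with erdafitinib in the same mean effect, where 1.71% of all genes were called, 0.938% of them lower. Of 11 tested genes of the MET group, 2 fell, PLAU by 1.70 (adjusted p = 0.0173) and TMPRSS2 by 1.15 (adjusted p = 0.00544), both of which were higher in resistant than in parental cells. Of the 9 tested genes of the DDR1 group, COL3A1 fell by 1.89 (adjusted p = 0.00502) and COL5A1 by 1.62 (adjusted p = 0.0158). COL5A1 went from 23.1 ± 10.4 CPM in TR vehicle to 6.49 ± 2.61 CPM in TR erdafitinib, still above 0.132 ± 0.126 CPM in PAR vehicle. FZD4, a WNT receptor, rose by 0.60 (adjusted p = 0.0379). FGFR2, itself a target of the drug, fell by 0.73 (adjusted p = 0.00171), the single other receptor tyrosine kinase called of 33. No gene of the RET ligand, RET adaptor, AXL or KIT lists was called. Of the basal markers, ACTA2 (-0.93) and MYLK (-0.60) fell in the same comparison. TP63 was not called with erdafitinib alone (-0.41) or on top of 4-OHT (-0.75, edgeR adjusted p = 0.596).

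Of the 13 genes of the oestrogen receptor programme, 4 rose in the mean erdafitinib effect, where 1.71% of all genes were called in either direction. They were CXCL12 by 0.98, MYB by 0.76, PDZK1 by 0.75 and GREB1 by 0.74. GFRA1, at -0.42 (SE 0.25; adjusted p = 0.592), was not called. GREB1 had a mean of 13.1 CPM in TR vehicle, 21.1 CPM in TR erdafitinib and 486 CPM in PAR vehicle. Between TR vehicle and TR erdafitinib alone it was not called (0.69, edgeR adjusted p = 0.343). Erdafitinib alone called only CXCL12 among all the listed genes (0.96, adjusted p = 0.00716). In the presence of 4-OHT, COL3A1 (-2.28), FGFR2 (-0.87), MYLK (-0.84) and CXCL12 (1.00) were called.

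The last comparison set the combination against erdafitinib alone. None of the 6 tested members and none of the 16210 genes was called by edgeR (0%, with 104 at an unadjusted p under 0.05 and 16 called by DESeq2). RET stood at 7.72, 7.45 and 11.8 CPM in TR combination, GFRA1 at 1.34, 0.681 and 1.28 CPM, and DDR1 at 473, 514 and 880 CPM. The level of RET over the groups ran from TR erdafitinib through TR combination, TR vehicle and TR 4-OHT to PAR vehicle. Neighbouring resistant groups overlapped in that order, and only the step down to PAR vehicle separated libraries. For DDR1 the order was TR 4-OHT, TR vehicle, TR erdafitinib, TR combination and PAR vehicle, again with a gap only before PAR vehicle. For GFRA1 the gaps lay below PAR vehicle and between TR vehicle and TR erdafitinib, whose lowest and highest libraries were 1.57 and 1.54 CPM. For MET the order was TR 4-OHT, TR vehicle, PAR vehicle, TR erdafitinib and TR combination. A gap lay between the lowest PAR vehicle library (3.24 CPM) and the highest of TR erdafitinib (2.90 CPM). That pair of groups was not tested. Groups without overlap were common against PAR vehicle, at 41.0% of all genes for TR vehicle and 44.1% for TR 4-OHT. MST1R overlapped between all neighbours in its order, as did AXL.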

How the data were processed

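RNA from 15 libraries was read as 150 bp pairs after a stranded kit, per the labels' protocols. The submitters' processing notes name HISAT2 2.1.0 as the aligner and GRCh38 as the build. Deposited were raw gene counts, which the authors made with featureCounts 2.0.1 (paired, reverse-stranded, Ensembl 104), per the file headers; the processing notes give version 1.4.6-p1. Trimming was not given in the sources used here.

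The analysis ran in edgeR 4.0.16 under R 4.3.3: filterByExpr, TMM scaling, 1 quasi-likelihood fit of all libraries with a mean per group, and Benjamini-Hochberg adjustment over 16210 genes. The common biological coefficient of variation was 30.8%. CPM and FPKM were computed from the counts with TMM-scaled totals; FPKM used the exon length of the files. Correlations used log2(CPM + 0.5). SE is the absolute log2 fold change over the root of F. Floors of 3 counts and exact 95% intervals cover counting error only. Gene types and GC content came from GENCODE 29, gene symbols from a separate list by Ensembl ID, and start-site windows from RefSeq (GRCh38.p14). The fit was tested on simulated data.

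The members and lists were chosen with earlier results of these data known. Named were all members; per list, up to 4 called genes with the smallest p in TR vehicle against PAR vehicle; any listed gene called within resistant cells; and 5 genes most correlated with RET and with GFRA1 (average log2 CPM of at least 2). Other names are marked in the text. Alternatives were DESeq2 1.42.0, its size factors, other filters, only the groups compared, the replicate block, the within-group axis, and leaving out libraries.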

Additional observations from a re-analysis of the deposited data

How the results depend on the processing

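Of the 432 values of members recomputed under an alternative, 405 kept their direction and side of the threshold. RET, GFRA1 and DDR1 kept their calls in both comparisons with PAR vehicle in each of the 14 alternatives. Values that changed sign were all uncalled: in TR vehicle against PAR vehicle, MET was -0.011 with the within-group axis and -0.23 to 0.32 leaving out single libraries, and MST1R was -0.12 without the 2 shallowest libraries and -0.19 to 0.54 leaving out single ones. Leaving out single libraries also gave RET -0.18 to 0.061 and DDR1 -0.22 to 0.39 for 4-OHT, and GFRA1 -0.56 to 0.080 for the combination against 4-OHT. The cause was not tested.

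For the mean erdafitinib effect, 0 members were called with the replicate block (MET -1.18, adjusted p = 0.0724), 0 without the 2 shallowest libraries (-1.07) and 0 to 1 leaving out single libraries. Same-numbered libraries did not deviate together in a constant direction (correlations of -0.827 to 0.772). As the GC axis enters these deviations, they do not settle whether the numbers pair the libraries. The replicate block changed no other member's call. For the combination against 4-OHT, 1 member (MET) was called by DESeq2 and 1 with the axis.

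Counts of all genes called moved as follows. With the axis they were 8888 (TR vehicle) and 8755 (TR 4-OHT) against PAR vehicle, 277 for erdafitinib, 746 and 17 for the combination against 4-OHT and erdafitinib, and 1715 for the mean effect; the axis comes from the same residuals. With only the groups compared they were 3544 for TR vehicle against PAR vehicle, 0 for erdafitinib and 68 for the combination against 4-OHT. DESeq2 called 87, 288, 16, 580 and 1 for erdafitinib, the combination against 4-OHT and against erdafitinib, the mean effect and the interaction. Without a filter 26 were called for erdafitinib and 9 for the combination against erdafitinib, and the replicate block left 9 for erdafitinib. Leaving out single libraries gave 2 to 17 for erdafitinib, 44 to 63 for the combination against 4-OHT and 138 to 464 for the mean effect, against 15, 104 and 278.

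Depth limits the low genes: 3 counts in a library equal 0.0983 to 0.476 CPM, which covers nearly every value of AXL, KIT and ROR1 in the shallow libraries.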
